A study of Mus musculus with 6 samples.

Results

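miR-451a, miR-144-3p and miR-144-5p are the 3 mature microRNAs of the erythroid cluster on mouse chromosome 11. They were taken by name from a table of 1966 mature miRNAs, all 3 were found, and all 3 passed the low-count filter. The mice were male and wild type, their hearts were collected 8 weeks after surgery, and each heart gave 1 small RNA library. In 3 mice (TAC 29, TAC 78 and TAC 81) the aorta had been narrowed by transverse aortic constriction, so that the left ventricle pumps against a raised pressure. The other 3 (sham 47, sham 68 and sham 69) had sham surgery. Strain, age and chamber of the heart are not stated in the labels, and numbers in the names are the animal numbers of the labels.

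The cluster is transcribed as one primary transcript that the factor GATA1 switches on in developing red blood cells, and it is among the most red-cell-specific miRNA loci known in vertebrates. miR-451a is unusual in its making: Dicer does not cut its hairpin, which is instead cleaved by Argonaute 2 and then trimmed. The miR-144 hairpin follows the usual route and gives one mature miRNA from each arm. In mice, miR-451a restrains the 14-3-3 zeta protein (Ywhaz) in red cell precursors and protects them from oxidative stress. In mouse hearts, both miRNAs have been studied as protective factors in ischemia.

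The mature sequences are shown because the seed, bases 2 to 8 and here in capitals, sets which mRNAs a miRNA recognises. The 3 seeds differ from each other, so each of these miRNAs recognises its own set of targets. Sequences are from RefSeq (build GRCm38.p6), read 5′ to 3′, and the coordinates of all 3 were the same in the deposited table. miR-101a-3p is added because it was the only other of the 1675 rows with a RefSeq sequence to share bases 2 to 7 with one of them, miR-144-3p.
miR-451a: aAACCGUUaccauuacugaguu
miR-144-3p: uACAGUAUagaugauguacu
miR-144-5p: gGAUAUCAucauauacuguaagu
miR-101a-3p: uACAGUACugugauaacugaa

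Counted from the 5′ end, miR-144-3p and miR-101a-3p differ within the first 8 bases at U8C alone (miR-144-3p has U at position 8). The GC content is 36.4% in miR-451a, 30.0% in miR-144-3p and 30.4% in miR-144-5p.

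The hairpins show how the mature parts lie, here in capitals.
Mir144: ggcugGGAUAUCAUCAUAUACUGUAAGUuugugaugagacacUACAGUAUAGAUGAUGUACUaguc
Mir451a: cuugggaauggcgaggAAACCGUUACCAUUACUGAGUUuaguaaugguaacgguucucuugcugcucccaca

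Mir144 lies at chr11:78073005-78073070 and Mir451a at chr11:78073170-78073241, both on the plus strand with 99 bases between them. GENCODE release M21 places no exon over the cluster other than those of the miRNA genes. The nearest protein-coding gene, Eral1, lies on the minus strand and ends 168 bases beyond miR-451a. RNAfold predicts 27 base pairs in Mir144, whose mature parts lie on opposite sides of a loop of 6 bases. In Mir451a it predicts 30 base pairs and a loop of 4 bases. The 22 bases of miR-451a take up 17 paired bases and run through all 4 bases of that loop, with no second mature part on the other arm.

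**Figure D1:**
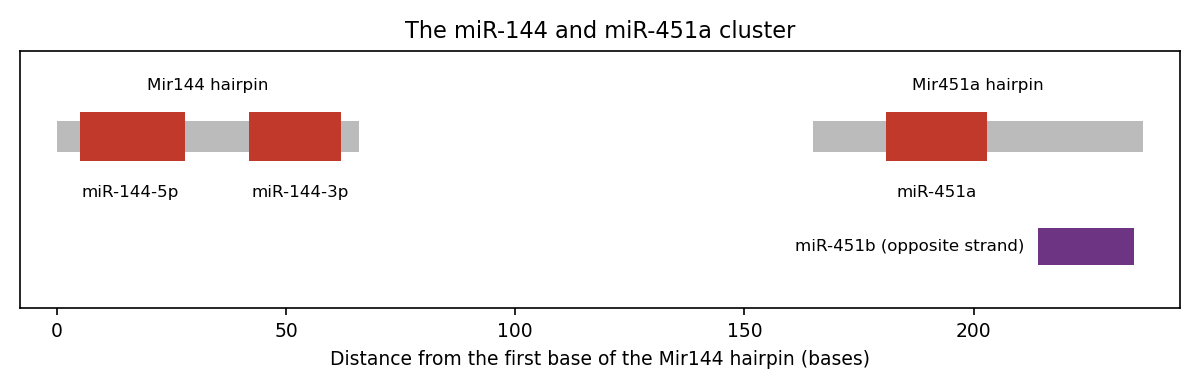
Map of the cluster, in bases from the first base of the Mir144 hairpin. Grey bars are hairpins, red bars the mature miRNAs on the plus strand and the purple bar miR-451b on the opposite strand, with 11 bases between it and miR-451a.

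Within 10 kb of the 3 miRNAs the table holds 1 more row, miR-451b, read from the opposite strand of the Mir451a hairpin. It had 2, 2 and 1 counts in TAC 29, TAC 78 and TAC 81, against 1, 0 and 1 in sham 47, sham 68 and sham 69. These are at or under the 3 counts that a count of 0 allows, so no fold change is given. Of the 3 miRNAs, 0 overlap a row on the opposite strand, and each has 1 place in the table. Whether reads from elsewhere in the genome were counted in them was not tested.

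Library totals ranged from 1226187 to 1795831 counts in TAC mice and from 1818725 to 3509001 in sham mice. Libraries of a group differed by far more than counting error (31.6 to 67.8 times the chi-square expected from counting alone), so none was a copy of another. Levels are given in CPM, counts scaled by library size with TMM factors. miRNAs with an edgeR adjusted p under 0.05 over all 354 tested rows are said to have risen or fallen in TAC hearts. Reads of a mature miRNA were taken to span all of it, which was not tested, so counts were not divided by length (22, 20 and 23 bases) unless said.

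The comparison of TAC with sham hearts asks how these miRNAs differ under chronic pressure overload. miR-451a rose 2.22-fold in TAC hearts, and the miR-144 arms did not pass the test. Thus 1 of the 3 was called higher, where 19.2% of all tested rows were, and 30.5% were called in either direction. In bulk tissue, more red cells and more of the miRNA per cell cannot be told apart.

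miR-451a, the abundant miRNA of the cluster and of mature red cells, had 3316, 2299 and 3097 counts in TAC 29, TAC 78 and TAC 81, against 3602, 2124 and 2364 counts in sham 47, sham 68 and sham 69. Scaled, these were 2005, 1544 and 2909 CPM in the TAC mice, against 921, 1066 and 926 CPM in the sham mice. Every TAC mouse was above every sham mouse, TAC 81 stood highest, and the sham mice lay close together. Rows whose groups did not overlap were 51.4% of those tested, and 29.4% were higher in this way. The means were 2153 ± 694 CPM in TAC and 971 ± 82.5 CPM in sham (SD, n = 3 each). The log2 fold change was 1.15 ± 0.20 (SE), with a 95% interval of 0.69 to 1.61 and an edgeR adjusted p = 0.00423. It ranked 8th among the 68 rows called higher, by size of the change, and 56th of 354 tested rows by mean CPM. Without TAC 81 the log2 fold change was 0.87, still called (edgeR adjusted p = 0.00603).

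miR-144-3p, the arm known to target the antioxidant factor Nrf2 (Nfe2l2), had 108, 78 and 90 counts in TAC 29, TAC 78 and TAC 81, against 164, 112 and 173 counts in sham 47, sham 68 and sham 69. That was 65.3, 52.4 and 84.6 CPM in the TAC mice, against 41.9, 56.2 and 67.8 CPM in the sham mice. The groups overlapped: TAC 78 lay below sham 68 and sham 69. Means were 67.4 ± 16.2 CPM in TAC and 55.3 ± 12.9 CPM in sham (SD, n = 3 each). The log2 fold change of 0.28 ± 0.24 (SE) did not pass (edgeR adjusted p = 0.366), and its 95% interval reached from -0.25 to 0.82. With library totals as the scaling it was -0.029, and with the trend with GC content removed from each library -0.14, so its sign is not settled by these data.

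miR-144-5p, the other arm of the same hairpin, had 103, 66 and 72 counts in TAC 29, TAC 78 and TAC 81, against 143, 83 and 145 counts in sham 47, sham 68 and sham 69. The scaled levels were 62.3, 44.3 and 67.6 CPM in the TAC mice, against 36.6, 41.7 and 56.8 CPM in the sham mice. Here too the groups overlapped, since sham 69 lay above TAC 78. Its means were 58.1 ± 12.2 CPM in TAC and 45.0 ± 10.5 CPM in sham (SD, n = 3 each). The log2 fold change was 0.37 ± 0.23 (SE), with a 95% interval of -0.15 to 0.88 and an edgeR adjusted p = 0.234. With the GC trend removed it was -0.050, so the sign is not settled for this arm either. For both arms the interval holds 0 and leaves room for a change, so these counts do not show that the arms stayed level.

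**Figure D2:**
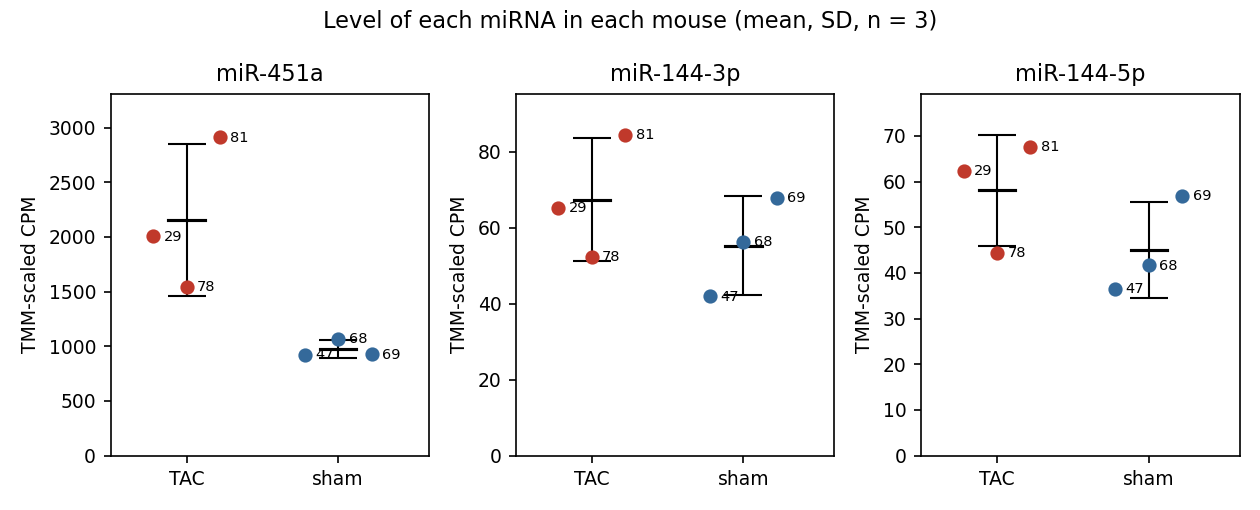
Level of each miRNA in each mouse, in TMM-scaled CPM on axes that start at 0, with points labelled by animal number and bars for mean and SD (n = 3 mice per group). For miR-451a the 3 TAC mice lie between 1544 and 2909 CPM, above the 921 to 1066 CPM of the sham mice, while for both miR-144 arms the groups overlap.

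The order of levels was the same in every mouse: miR-451a, then miR-144-3p, then miR-144-5p. By mean CPM the miR-144 arms ranked 178th and 192nd of 354. Reads of miR-144-3p were 1.05, 1.18 and 1.25 times those of miR-144-5p in TAC 29, TAC 78 and TAC 81, against 1.15, 1.35 and 1.19 times in sham 47, sham 68 and sham 69. The ratio was above 1 in every library, from 1.05 to 1.35. Its exact 95% binomial interval held 1 in every library except sham 68, which does not show that the arms were evenly counted. The ratio averaged 1.16 ± 0.10 in TAC and 1.23 ± 0.11 in sham (SD, n = 3 each), and the exact two-sided permutation p of the difference in log2 ratio, -0.084, was 0.5. The arm balance of the miR-144 hairpin therefore differed between the groups by less than the spread between mice.

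Within the cluster, miR-451a stood higher relative to miR-144 in every TAC mouse than in any sham mouse. miR-451a reads were 15.7, 16.0 and 19.1 times the summed reads of both miR-144 arms in TAC 29, TAC 78 and TAC 81. In sham 47, sham 68 and sham 69 they were 11.7, 10.9 and 7.43 times that sum. Because both counts come from the same library, this ratio does not depend on how libraries are scaled to each other. Exact 95% binomial intervals, which cover counting error only, were 13.7 to 18.2, 13.5 to 19.0 and 16.3 to 22.5 in the TAC mice, and 10.4 to 13.2, 9.40 to 12.7 and 6.61 to 8.38 in the sham mice. The mean was 16.9 ± 1.90 in TAC and 10.02 ± 2.28 in sham (SD, n = 3 each). On the log2 scale the groups differed by 0.78, or 1.72-fold, with an exact two-sided permutation p = 0.1, the smallest that 3 against 3 mice can give. Divided by mature length, the ratios were 15.3, 15.4 and 18.5 in the TAC mice and 11.4, 10.5 and 7.19 in the sham mice. Sham 69, the mouse with the lowest ratio, had the highest miR-144 levels of its group and a miR-451a level close to that of sham 47. Without sham 69 the log2 difference was 0.58.

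**Figure D3:**
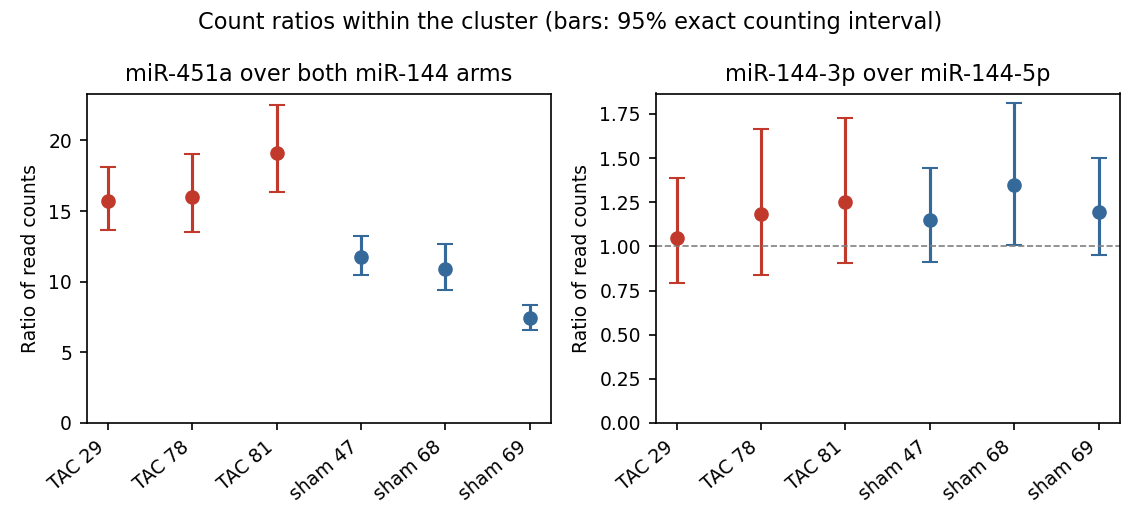
Ratio of read counts in each library, miR-451a over both miR-144 arms on the left and miR-144-3p over miR-144-5p on the right, with exact 95% counting intervals as bars and a dashed line at 1. On the left the TAC mice (15.7 to 19.1) lie above the sham mice (7.43 to 11.7), and on the right the groups overlap.

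Together the 3 miRNAs held 0.196%, 0.149% and 0.266% of counts in TAC 29, TAC 78 and TAC 81, against 0.111%, 0.128% and 0.119% in sham 47, sham 68 and sham 69. The sum is almost entirely miR-451a, which made up 93.1% to 95.8% of cluster reads in the TAC mice and 86.9% to 93.0% in the sham mice, taking the outer bounds of the exact 95% binomial intervals. The share had an exact two-sided permutation p = 0.1.

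Among mice of a group, the 3 miRNAs were ordered alike in the TAC hearts, with TAC 81 highest, TAC 29 next and TAC 78 lowest for each. In the sham hearts both arms of miR-144 were highest in sham 69 and lowest in sham 47, while miR-451a was highest in sham 68. The SD of log2 CPM of miR-451a was 0.46 among TAC mice and 0.12 among sham mice. Pooled over the groups, the within-group SD was 0.34 for miR-451a, 0.34 for miR-144-3p and 0.32 for miR-144-5p. Among the 50 tested rows nearest in level, the median of that SD was 0.14, 0.21 and 0.22 in the same order, and 4, 8 and 11 of the 50 rows varied more. All 3 thus stood among the more variable rows of their level.

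Likeness of pattern was measured as the root mean square difference of centred log2 CPM over the 6 libraries, where 0 means the same pattern. Each row was centred over all 6 libraries, so the distance includes the difference between TAC and sham. Rows with unlike log2 fold changes therefore lie apart, and the ranks are not separate from the fold changes given above. The arms of miR-144 were each other's nearest of all 353 other tested rows, at 0.11. miR-451a was the 222nd nearest row to miR-144-3p and the 199th nearest to miR-144-5p, at 0.46 and 0.44. Seen from miR-451a, the same distances made miR-144-3p its 74th and miR-144-5p its 63rd nearest row. The 3 rows nearest to miR-451a were miR-19b-3p (0.13), a member of the miR-17 to miR-92a polycistron, the muscle miRNA miR-133a-5p (0.16) and the smooth muscle miRNA miR-145a-3p (0.21). Their log2 fold changes were 1.07, 0.95 and 0.89, near the 1.15 of miR-451a. miR-19b-3p was at 50.8, 37.6 and 58.2 CPM in TAC 29, TAC 78 and TAC 81, against 21.0, 28.1 and 21.2 CPM in sham 47, sham 68 and sham 69. It shares with miR-451a the order of the TAC mice and the place of sham 68 at the top of its group. Because miR-19b-3p was picked as the nearest row over these same libraries, that shared order is no separate sign of likeness. After each other, the miR-144 arms were nearest to miR-28a-5p (0.13 from miR-144-3p), miR-15a-5p (0.15 from miR-144-5p) and miR-142a-5p, a miRNA of blood-forming cells (0.16 from either arm).

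miR-101a-3p, whose seed begins like that of miR-144-3p, was far more abundant and did pass the test. Its level was 3696, 3186 and 3504 CPM in TAC 29, TAC 78 and TAC 81, against 2133, 2109 and 1891 CPM in sham 47, sham 68 and sham 69. The groups did not overlap, and its log2 fold change was 0.76 ± 0.09 (SE, edgeR adjusted p = 0.000901). miR-101b-3p had a close level and pattern, at 3410, 2936 and 3233 CPM in the TAC mice against 2006, 2001 and 1776 CPM in the sham mice. Whether the same reads were counted in both rows was not tested.

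Other miRNAs known from red cells and their precursors did not move as one. Of a list of 15, 7 could be tested: 2 rose, 1 fell and 4 did not pass, where 19.2% of all tested rows rose and 11.3% fell. The median log2 fold change of the list was 0.06, against 0.07 over all tested rows. miR-16-5p, abundant in red cells and in most tissues, was at 974, 816 and 962 CPM in TAC 29, TAC 78 and TAC 81, against 606, 720 and 595 CPM in sham 47, sham 68 and sham 69 (log2 fold change 0.52 ± 0.12, edgeR adjusted p = 0.0125). miR-25-3p rose by 0.46 ± 0.10 (SE), and miR-210-3p, a miRNA induced by hypoxia and also found in erythroid cells, fell by 0.73 ± 0.17 on the log2 scale. miR-92a-3p, the most abundant of the list, was at -0.012 ± 0.11. The summed level of the list was 10370 to 12670 CPM in TAC mice and 10470 to 12120 CPM in sham mice. Most of that sum is miR-92a-3p, at 7760 to 9691 CPM in TAC and 8171 to 9678 CPM in sham. The sum therefore says little about the other members.

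miR-486, the other defining miRNA of red cells, gives no cross-check here. miR-486a-5p, miR-486a-3p and miR-486b-3p were at 0 in every library, and miR-486b-5p had 4 counts or fewer. All 4 lie over a row on the opposite strand, by 20 bases. Of 90 rows overlapped in this way at every place 82 were at 0 in all libraries, against 784 of 1873 rows not overlapped. The zeros of miR-486 were therefore not read as absence, and their cause was not tested. With miR-486 unread, the erythroid label rests on the 3 miRNAs themselves. Of a list of 6 miRNAs that fall as red cells mature, 5 could be tested. Of these 1, miR-150-5p, rose (1.17 ± 0.15) and the other 4 did not pass, where 19.2% of all tested rows rose. miR-150-5p, miR-155-5p and miR-223-3p are also on the leukocyte and platelet list below, so the rise of miR-150-5p is counted in both lists. miR-24-3p of that list was at 0 and lies over an opposite-strand row as well.

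Several markers of other cells differed between the groups, and their part in the rise of miR-451a was not tested. Of 8 tested leukocyte and platelet miRNAs, 2 rose and 6 did not pass, a share near the 19.2% of all tested rows that rose. The median log2 fold change of the list was higher, at 0.43 against 0.07 over all tested rows. The summed level of that list was 1631 to 1767 CPM in TAC mice and 1213 to 1611 CPM in sham mice. Most of it is miR-146a-5p (means of 1236 CPM in TAC and 1074 CPM in sham), which did not pass. The defining marker of the list, miR-142a-3p, was at 0 and lies over an opposite-strand row. Of 6 heart muscle miRNAs, both arms of miR-133a among them, 5 rose and miR-208b-3p did not pass, where 19.2% of all tested rows rose. The sums were 274700 to 327400 CPM in TAC mice and 152300 to 183900 CPM in sham mice. Nearly all of these sums is miR-1a-3p (means of 226500 CPM in TAC and 125100 CPM in sham) and miR-133a-3p (59300 and 38520 CPM). Of 4 tested vessel wall miRNAs 3 rose, where 19.2% of all tested rows did. These 4 are both arms of miR-143 and of miR-145a, so they are not 4 separate markers. The summed level of the list was 59520 to 62550 CPM in TAC and 34630 to 43240 CPM in sham. That sum is mostly miR-143-3p, with means of 58930 CPM in TAC and 37820 CPM in sham. The endothelial miR-126a-3p and miR-126a-5p were at 0 over opposite-strand rows. All 5 listed fibroblast miRNAs fell (17050 to 19670 CPM in TAC, 26110 to 38230 CPM in sham), where 11.3% of all tested rows did. They are both arms of miR-199a, both arms of miR-214 and miR-21a-5p, so they are not 5 separate markers. The other arm of miR-21a, miR-21a-3p, was not listed and did not pass (log2 fold change 0.29, edgeR adjusted p = 0.638). Its means were 8.35 CPM in TAC and 6.79 CPM in sham.

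**Figure D4:**
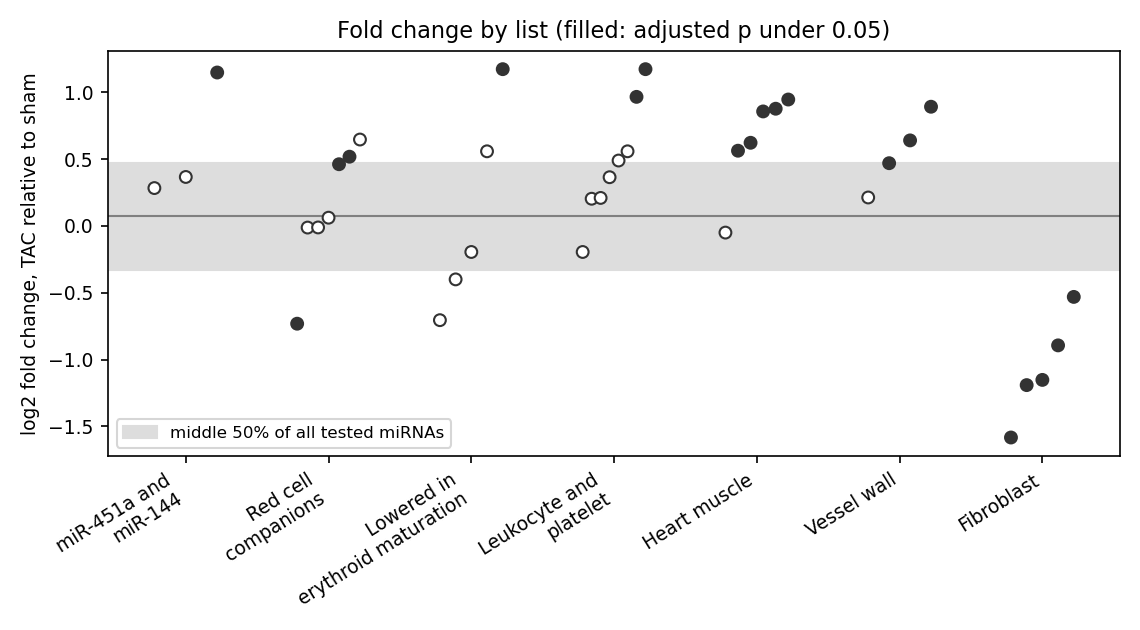
Log2 fold change, TAC relative to sham, of the tested members of each list, filled where the edgeR adjusted p was under 0.05, with the grey band for the middle 50% of all tested miRNAs and the line for their median. miR-451a (1.15) lies above the band, both miR-144 arms (0.28 and 0.37) lie within it, and the red cell companions are spread from -0.73 to 0.65.

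The rise of miR-451a was called under each of the 17 other settings tried, with log2 fold changes from 0.83 to 1.33 and adjusted p up to 0.0201. Neither miR-144 arm was called under any of the 17, where miR-144-3p ranged from -0.14 to 0.46 and miR-144-5p from -0.050 to 0.56. The median of all tested rows itself moved with the scaling, from 0.07 with TMM factors to -0.24 with library totals. Relative to that median, miR-451a was at 1.08 in the fit reported and at 0.82 to 1.28 under the other settings.

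**Figure D5:**
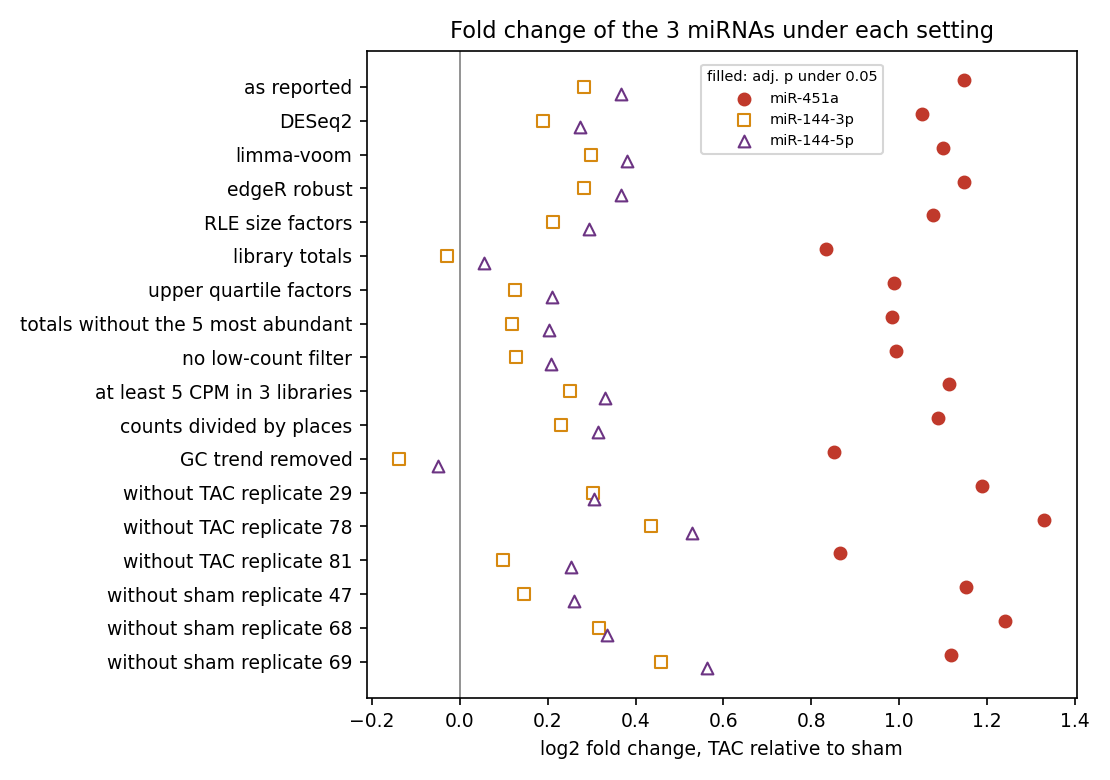
Log2 fold change, TAC relative to sham, of the 3 miRNAs in the fit reported and under the 17 other settings, one line per setting, with filled symbols where the adjusted p was under 0.05. miR-451a is filled throughout (0.83 to 1.33), and the open symbols of the miR-144 arms lie between -0.14 and 0.56.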

How the data were processed

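The values are raw read counts for each mature miRNA and mouse, as the authors deposited them. The submitters' processing notes name HISAT2, StringTie, DESeq2 and build mm10 without their roles. How reads were trimmed, counted and assigned to strands is not stated. From these counts, the quasi-likelihood test of edgeR 4.0.16 in R 4.3.3, with TMM factors and the filterByExpr filter, compared TAC with sham over all 354 rows that passed the filter, with Benjamini-Hochberg adjustment and no covariate. The 95% intervals of log2 fold changes are from that fit. Ratios and shares were compared by exact permutation over mice (scipy 1.17.1). At these depths 3 counts are 0.855 to 2.45 CPM, and floors and binomial intervals cover counting error only. Each library is a separate mouse per the labels. Hairpins were folded with RNAfold 2.7.2. The pipeline was checked on simulated counts. The miRNAs and lists were chosen with earlier results of these data known. Named rows are the 3 miRNAs, rows within 10 kb or sharing bases 2 to 7, the 3 nearest patterns of each, up to 4 per list, and rows needed to read these. Alternatives were DESeq2 1.42.0, limma-voom 3.58.1, robust edgeR, 4 scalings, 2 filters, counts divided by places, a GC trend removed (local regression, span 0.75, on the 315 tested rows with a RefSeq sequence) and leaving out each mouse.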

Additional observations from a re-analysis of the deposited data

How the results depend on the processing

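The call of miR-451a kept its direction and its side of the threshold under all 17 alternatives. The cluster's share (8 alternatives) and both ratios (7 each) kept their direction, and their exact permutation tests could not pass the threshold in this design. Leaving out 1 mouse gave log2 fold changes of 0.87 to 1.33 for miR-451a, log2 differences of 0.58 to 0.91 for the ratio of miR-451a to miR-144 and differences of 0.05 to 0.11 percentage points for the share. The sign of miR-144-3p turned to -0.029 with library totals and to -0.14 with the GC trend removed, and that of miR-144-5p to -0.050 with the GC trend removed; none of these was called and the cause was not tested. Of all tested miRNAs, 108 were called (68 higher, 40 lower), 65 with the GC trend removed, where 315 rather than 354 rows were tested, and 64 to 83 without 1 mouse. The lowest of these were 64 without TAC 81 and 69 without TAC 78. The split of higher and lower calls depended on the scaling: RLE size factors gave 50 higher and 56 lower, upper quartile factors 41 and 63, library totals 25 and 102, and totals that leave out the 5 largest rows 43 and 72. It was 42 and 65 without a low-count filter, 51 and 52 with counts divided by places and 45 and 50 with DESeq2. No paired analysis was possible because the groups share no animal number. The miR-144 arms had 66 to 173 counts per library, and how far depth limits their comparison was not tested.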
